A study of Mus musculus with 18 samples.

Results

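The genes described here are those that write, copy and remove DNA methylation in mouse embryonic stem cells (ESCs). They are the DNA methyltransferase genes Dnmt1, Dnmt3a and Dnmt3b, the cofactor gene Dnmt3l, and the methylation-copying partner Uhrf1 with its paralogue Uhrf2. The others are the 5-methylcytosine oxidases Tet1, Tet2 and Tet3, and the thymine DNA glycosylase gene Tdg. These 10 genes were chosen by name and matched by Ensembl identifier among the 53801 genes of the count table. All 10 were found, and all 10 passed the filter on low counts that left 18469 genes to test.

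Polyadenylated RNA was sequenced from 18 cultures in 6 groups of 3 libraries. The parental line, E14 wt (WT here), was compared with iEZR_CA, an E14 derivative that carries a doxycycline-inducible, phosphomimetic and constitutively active ezrin on a PiggyBac transposon. Ezrin links the plasma membrane to cortical actin, and the comparison asks how forced ezrin activity alters the departure from naive pluripotency. Each line was sampled on gelatin in 2i+LIF, the medium of naive ESCs (ESC, 0 h), and once the inhibitors and the cytokine had been withdrawn in N2B27 for 24 h (T24) or 48 h (T48). Doxycycline was given to iEZR_CA about 16 h before exit, without a statement for each library on whether iEZR_CA at ESC had received it. No WT culture with the drug was described, so the transgene, the drug and the history of the line cannot be told apart. The methods used here do not say how many clones iEZR_CA stands for. The study describes the 3 libraries of a group as biological replicates. The labels name each library by its well and give no replicate numbers, so the numbers used below follow the order of deposit and only name a library.

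The libraries held 10940752 to 33276622 counts on genes, with a median of 23096248. Ezr was higher in every iEZR_CA library than in any WT library, with 16067 to 25358 normalized counts against 7539 to 12017. The 5 pluripotency markers fixed for the check of the cells (Pou5f1, Sox2, Sall4, Lin28a and Utf1) were all expressed in all 6 groups, with a summed level of 30451 to 30938 normalized counts in iEZR_CA against 39906 to 41238 in WT at ESC, 42778 to 44007 against 61504 to 62220 at T24, and 46203 to 46466 against 55997 to 56849 at T48. The summed level of 4 post-implantation markers was 252 to 323 in iEZR_CA against 341 to 359 in WT at ESC, 2825 to 3417 against 12426 to 13700 at T24, and 11965 to 12675 against 17045 to 18777 at T48. A list of 4 neural markers was at 135 to 176 against 225 to 245, 461 to 509 against 766 to 875, and 509 to 526 against 857 to 1055 at the 3 stages. The summed level of 6 fibroblast markers was at most 639 normalized counts, reached in WT at T48 (576 to 639, against 359 to 439 in iEZR_CA and 34.9 to 77.2 in all groups at ESC and T24), with Dcn the highest gene of both T48 groups (means of 227 and 331). Of these markers, Lum had no more than 3 counts in any WT library and more in at least 1 library of each iEZR_CA group. Others went the opposite way. Col1a2 at ESC and Col3a1 at T24 had no more than 3 counts in iEZR_CA and more in at least 1 WT library. The summed level of 8 primitive endoderm markers was 4476 to 4791 normalized counts in iEZR_CA at ESC against 2213 to 2311 in WT, 1644 to 1753 against 725 to 772 at T24, and 1142 to 1173 against 1577 to 1656 at T48. A list of 5 trophoblast markers was at 344 to 389 against 117 to 129 at ESC, 590 to 640 against 150 to 168 at T24, and 489 to 531 against 629 to 713 at T48. A list of 4 mesendoderm markers was at 658 to 714 against 541 to 589 at ESC, 166 to 193 against 137 to 147 at T24, and 241 to 279 against 129 to 134 at T48. The summed level of 6 naive pluripotency markers was 97160 to 98174 in iEZR_CA and 102940 to 105120 in WT at ESC. It was 47091 to 47809 against 23225 to 23950 at T24, and 9817 to 10806 against 1894 to 1969 at T48. The part of these markers in the results below was not tested. The libraries are bulk RNA, so fewer cells that express a gene and less RNA per cell cannot be told apart.

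Methylation of cytosine in CpG dinucleotides is laid down on unmarked DNA by DNMT3A and DNMT3B, which the catalytically inactive DNMT3L stimulates, and is copied to the daughter strand after replication by DNMT1, which UHRF1 brings to hemimethylated sites. TET enzymes oxidise 5-methylcytosine, and TDG excises some of the oxidised bases so that base excision repair can restore an unmodified cytosine. Naive ESCs in 2i are known for a sparsely methylated genome, and the departure from this state towards the post-implantation epiblast is known as a time of genome-wide gain of methylation.

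The start regions of the genes whose counts moved most carry very different densities of CG dinucleotides. They are shown for Dnmt3a, Dnmt3b, Dnmt3l and Tet2 as the RefSeq window (GRCm38.p6) of 250 bases before and 50 bases after the start site nearest the annotated start of the gene, 5′ to 3′ on the strand of the gene, with every CG dinucleotide in capitals. The windows lie at chr12:3806730-3807029 (plus strand), chr2:153649199-153649498 (plus strand), chr10:78042037-78042336 (plus strand) and chr3:133544341-133544640 (minus strand), respectively.
Dnmt3a: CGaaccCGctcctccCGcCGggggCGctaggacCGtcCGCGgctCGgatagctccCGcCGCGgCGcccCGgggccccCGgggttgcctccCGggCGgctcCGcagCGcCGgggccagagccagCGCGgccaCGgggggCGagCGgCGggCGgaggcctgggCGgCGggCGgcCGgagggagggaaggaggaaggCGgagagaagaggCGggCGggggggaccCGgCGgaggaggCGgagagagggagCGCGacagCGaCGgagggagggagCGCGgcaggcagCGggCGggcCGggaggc
Dnmt3b: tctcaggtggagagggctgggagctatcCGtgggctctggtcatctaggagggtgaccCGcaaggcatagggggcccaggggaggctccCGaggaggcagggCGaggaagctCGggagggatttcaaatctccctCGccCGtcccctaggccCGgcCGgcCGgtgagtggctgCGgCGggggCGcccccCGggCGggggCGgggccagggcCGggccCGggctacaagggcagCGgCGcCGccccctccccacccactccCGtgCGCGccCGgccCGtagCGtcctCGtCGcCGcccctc
Dnmt3l: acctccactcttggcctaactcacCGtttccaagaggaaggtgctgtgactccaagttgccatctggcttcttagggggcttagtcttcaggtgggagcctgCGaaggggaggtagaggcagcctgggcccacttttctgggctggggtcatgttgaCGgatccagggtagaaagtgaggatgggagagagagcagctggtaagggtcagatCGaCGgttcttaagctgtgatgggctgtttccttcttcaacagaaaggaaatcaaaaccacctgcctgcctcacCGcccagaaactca
Tet2: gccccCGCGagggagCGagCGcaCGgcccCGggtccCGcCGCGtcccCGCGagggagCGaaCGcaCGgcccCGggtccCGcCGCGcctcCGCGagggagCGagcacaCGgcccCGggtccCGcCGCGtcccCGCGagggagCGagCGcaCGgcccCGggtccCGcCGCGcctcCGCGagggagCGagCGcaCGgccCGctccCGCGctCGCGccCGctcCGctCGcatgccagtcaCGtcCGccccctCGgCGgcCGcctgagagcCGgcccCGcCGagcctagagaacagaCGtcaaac
The Tet2 window holds 57 CG, and 0.152% of the 32851 windows of all genes hold as many. Dnmt3a has 46 (1.65% of windows hold as many) and Dnmt3b has 30 (11.7%). The Dnmt3a windows that are not printed hold 47 and 18 CG (1.44% and 29.7%). The one with 18 CG starts 85737 bases from the annotated start of the gene, and which start is used here was not tested. The Dnmt3l window holds 6 CG, and 56.4% of all windows hold at least as many, so it is close to the median window, which holds 7. The other 2 Dnmt3l windows hold 4 and 3 CG. All 10 genes had a window, 17 in all. Among 3 short motifs searched on both strands, the TCF/LEF core CTTTGAT and the ETS core CCGGAAG were in none of the 17 windows (3.73% and 8.86% of all windows hold them), and the E-box CACGTG was in 3 of them, in 1 window each of Dnmt3a, Dnmt3l and Tdg (7.15% of all windows). The Dnmt3a and Dnmt3l windows with the E-box are not those printed above. None of the 3 motifs contains another, and these are letter matches within the windows only.

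Dnmt3a, the de novo methyltransferase gene on chromosome 12 (3806007 to 3914443, plus strand, GRCm38), rose within the first day in WT and did so less in iEZR_CA. Normalized counts (counts divided by the DESeq2 size factor of the library) were 1161, 1225 and 1304 in the 3 WT libraries at ESC, 21062, 21226 and 21655 at T24, and 18274, 19723 and 19806 at T48. In iEZR_CA they were 1828, 1860 and 1952 at ESC, 5524, 5844 and 5847 at T24, and 13101, 13323 and 13384 at T48. No library of one line overlapped the other line at any stage, and iEZR_CA was the higher line at ESC and the lower one afterwards. On the log2 scale the difference between the lines (iEZR_CA over WT, ± SE, 3 libraries each) was 0.61 ± 0.04 at ESC, -1.89 ± 0.03 at T24 and -0.53 ± 0.03 at T48 (adjusted p = 3.26e-21, 2.29e-48 and 1.91e-23). These and all other adjusted p-values, where no other test is named, are from the quasi-likelihood test of edgeR across all genes tested, adjusted by Benjamini-Hochberg, with calls made under 0.05. The T24 difference corresponds to 0.269 of the WT level.

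Dnmt3b, the other catalytic de novo enzyme gene (chromosome 2, 153649450 to 153687730, plus strand), kept rising through both days in both lines. Its normalized counts in WT were 3090, 3131 and 3183 at ESC, 29666, 30744 and 31309 at T24, and 57412, 58912 and 62554 at T48. In iEZR_CA the counts were 3550, 3637 and 3779 at ESC, 11862, 12273 and 12600 at T24, and 26118, 26226 and 27703 at T48. Thus every iEZR_CA library at T48 lay below every WT library at T24. The log2 difference between the lines was 0.21 ± 0.03 at ESC, -1.32 ± 0.03 at T24 and -1.15 ± 0.03 at T48 (edgeR adjusted p = 6.5e-07, 1.58e-30 and 6.79e-29).

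Dnmt3l, which encodes the catalytically inactive cofactor of both enzymes (chromosome 10, 78041947 to 78063622, plus strand), followed another course. It rose and fell in WT, with 457, 554 and 575 normalized counts at ESC, 21189, 21282 and 21805 at T24, and 5696, 6166 and 6290 at T48. In iEZR_CA it rose and stayed high, with 1780, 1846 and 1886 at ESC, 14803, 15116 and 15278 at T24, and 16710, 17085 and 17202 at T48. The iEZR_CA libraries were therefore all above WT at ESC, all below it at T24 and all above it at T48. The log2 differences were 1.77 ± 0.05, -0.51 ± 0.04 and 1.50 ± 0.04 (edgeR adjusted p = 1.42e-17, 1.09e-10 and 5.39e-19), or 3.42, 0.704 and 2.82 times the WT level.

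**Figure D1:**
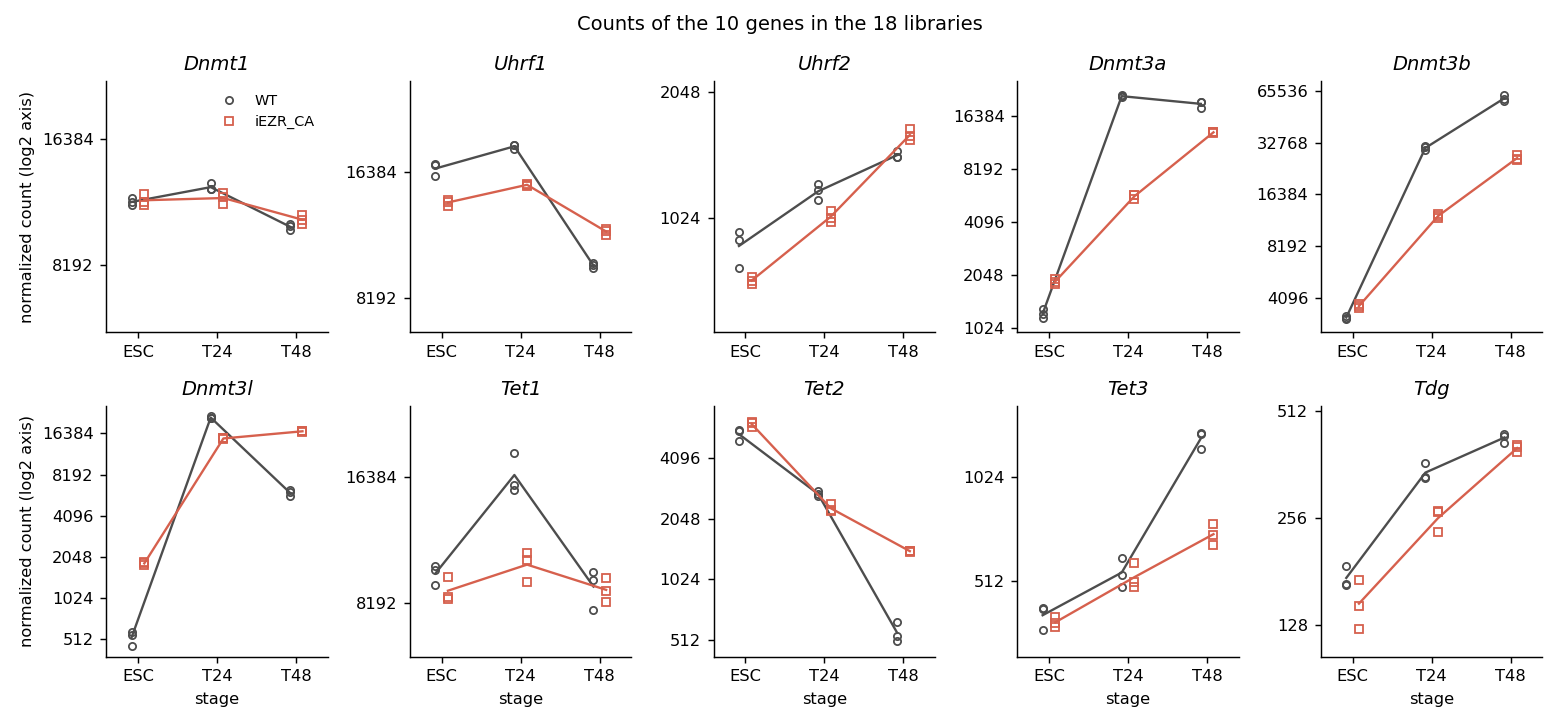
Normalized counts of the 10 genes (log2 y-axis) at ESC, T24 and T48 (x-axis), with 1 symbol for each library, grey circles for WT and red squares for iEZR_CA, and lines through the group means of 3 libraries. Dnmt3l is higher in iEZR_CA at ESC and T48 and lower at T24, Dnmt3b is below WT from T24 on, and Tet2 and Tet3 part at T48.

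Among the oxidase genes, Tet2 (chromosome 3, 133463679 to 133545139, minus strand) fell in both lines and fell further in WT. It had 4985, 5589 and 5635 normalized counts in WT at ESC, 2646, 2710 and 2811 at T24, and 505, 532 and 625 at T48. The iEZR_CA libraries had 5842, 6136 and 6241 at ESC, 2235, 2266 and 2432 at T24, and 1405, 1413 and 1419 at T48. The lines did not overlap at any stage, but the gap was small at ESC and T24 and wide at T48. The log2 difference was 0.16 ± 0.05 at ESC, -0.23 ± 0.06 at T24 and 1.35 ± 0.07 at T48 (edgeR adjusted p = 0.0146, 0.0027 and 7.17e-11). The ESC difference of Tet2 lost its call without iEZR_CA ESC replicate 2 or 3 (0.15 and 0.14, adjusted p = 0.0517 and 0.0564, edgeR).

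Tet3, an oxidase gene of low level here (chromosome 6, 83362373 to 83459084, minus strand), mirrored Tet2 at T48. Its T48 normalized counts were 1236, 1369 and 1377 in WT and 651, 698 and 750 in iEZR_CA, without overlap, and the log2 difference was -0.90 ± 0.06 (edgeR adjusted p = 2.63e-16). At ESC Tet3 had 370 to 428 in WT and 376 to 403 in iEZR_CA, and at T24 493 to 599 and 491 to 576. The lines overlapped at both of these stages, with log2 differences of -0.08 ± 0.08 (95% interval -0.26 to 0.10) and -0.02 ± 0.07 (-0.18 to 0.13).

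Tet1, the most abundant oxidase gene per kb of merged exons in all 6 groups, though not in iEZR_CA at ESC when the longest transcript is taken as the length (chromosome 10, 62804570 to 62908996, minus strand), differed between the lines only at T24 by the test. At T24 its normalized counts were 15290, 15740 and 18747 in WT and 9174, 10372 and 10805 in iEZR_CA, with a log2 difference of -0.71 ± 0.10 (edgeR adjusted p = 2.89e-05). At ESC it had 9037 to 10026 in WT and 8357 to 9474 in iEZR_CA, and at T48 7893 to 9703 and 8238 to 9416. These ranges overlapped, and the 95% intervals of the log2 difference were -0.36 to 0.07 at ESC and -0.24 to 0.20 at T48. Fitted on the 2 ESC groups alone, the Tet1 difference at ESC was called (-0.13, adjusted p = 0.0345, edgeR). Tdg, whose product excises some of the oxidised bases (chromosome 10, 82629828 to 82650799, plus strand), was lower in iEZR_CA at T24, with 234, 266 and 267 normalized counts against 331, 333 and 366 (log2 difference -0.43 ± 0.08, edgeR adjusted p = 3.24e-06). At ESC and T48 the difference of Tdg was -0.23 ± 0.10 and -0.11 ± 0.07 (adjusted p = 0.0512 and 0.192, edgeR). The Tdg difference at ESC passed the threshold without WT replicate 2 or iEZR_CA replicate 1 of that stage (-0.26 and -0.33, adjusted p = 0.0494 and 0.0109, edgeR).

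Of Dnmt1, Uhrf1 and Uhrf2, Dnmt1 differed least between the lines at each stage. Dnmt1, the maintenance methyltransferase gene (chromosome 9, 20907209 to 20959888, minus strand), stayed between 9903 and 12858 normalized counts in all 18 libraries. Its log2 difference between the lines was 0.01 ± 0.03 at ESC, -0.09 ± 0.03 at T24 and 0.06 ± 0.03 at T48 (edgeR adjusted p = 0.885, 0.00373 and 0.0353), and the call at T48 was lost under DESeq2 (adjusted p = 0.106) and the call at T24 without the filter on low counts (adjusted p = 0.13) or without iEZR_CA T24 replicate 3 (adjusted p = 0.072). Leaving out any of 8 single libraries also ended the T48 call of Dnmt1 (adjusted p up to 0.31, edgeR). Uhrf1, whose product recognises hemimethylated CpG (chromosome 17, 56303321 to 56323486, plus strand), had 16042 to 17113 in WT and 13630 to 14096 in iEZR_CA at ESC, 18651 to 19074 and 15208 to 15390 at T24, and 9646 to 9910 and 11621 to 11979 at T48. It was therefore lower in iEZR_CA at ESC and T24 and higher at T48, without overlap, and the log2 differences were -0.28 ± 0.02, -0.31 ± 0.02 and 0.28 ± 0.02 (edgeR adjusted p = 5.68e-16, 5.51e-18 and 6.14e-16). Uhrf2, its paralogue (chromosome 19, 30030513 to 30093722, plus strand), changed sides in the same order, with log2 differences of -0.28 ± 0.05, -0.20 ± 0.05 and 0.16 ± 0.04 (edgeR adjusted p = 7.29e-06, 0.000173 and 0.00121).

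Counted over the 10 genes, 4 were higher and 2 lower in iEZR_CA at ESC, where 26.4% and 28.1% of all genes tested were (54.5% in either direction). At T24 the count was 9 lower and none higher, against 30.1% and 30.8% of all genes (60.9%), and in edgeR none was higher at an unadjusted p under 0.05 either. At T48 there were 5 higher genes and 3 lower ones, against 31% and 30.1% (61.1%). The 6 and 8 calls of 10 at ESC and T48 are thus near the background or moderately above it. With libraries scaled to the spike-in sum, 2 of the 10 were called at ESC (both higher) and 4 at T24 (all lower). The gene not called at T24 with TMM scaling was Tet3. The lines did not overlap for 6 of the 10 genes at ESC, 9 at T24 and 8 at T48, where 58%, 63.9% and 64.5% of all genes did not overlap. The median log2 difference of the 10 genes was -0.04 at ESC, -0.37 at T24 and 0.02 at T48, beside medians over all genes tested of -0.01, 0.00 and 0.00. A difference beyond 2-fold was called for 1 of the 10 genes at ESC (Dnmt3l), 2 at T24 (Dnmt3a and Dnmt3b) and 3 at T48 (Dnmt3b, Dnmt3l and Tet2), where 11.9%, 14.9% and 16.1% of all genes passed both limits.

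**Figure D2:**
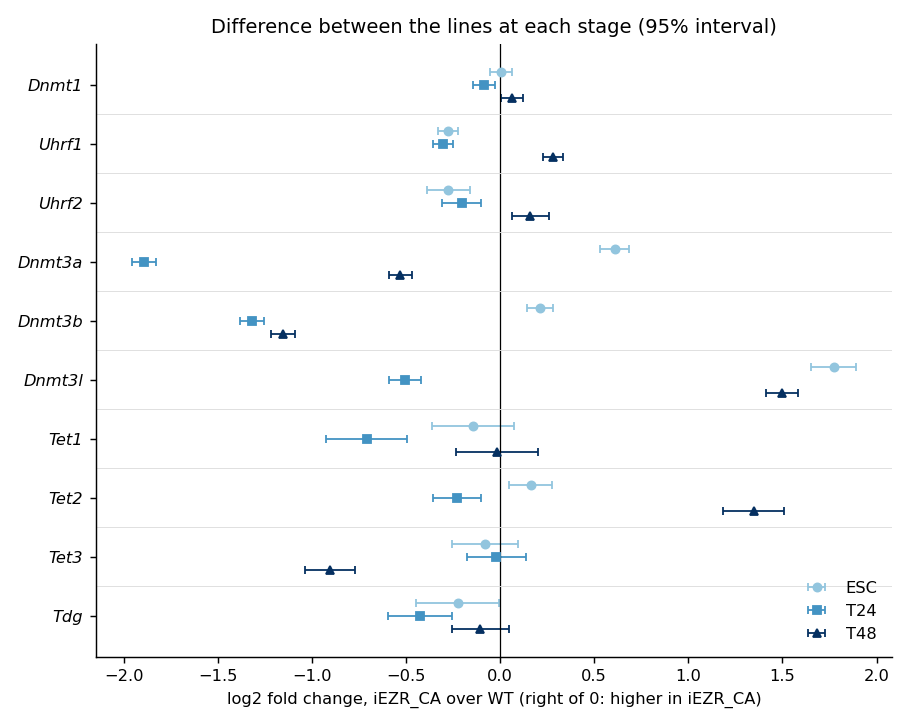
Log2 fold change of iEZR_CA over WT (x-axis) for the 10 genes (y-axis) at ESC, T24 and T48, with 95% intervals from edgeR. At T24 all 10 points are left of 0, from -1.89 for Dnmt3a to -0.02 for Tet3, and at T48 Dnmt3l (1.50) and Tet2 (1.35) are right of it while Dnmt3b (-1.15) and Tet3 (-0.90) are left.

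The same counts were then read as change with time within each line. In WT, 9 of the 10 genes rose and 1 fell from ESC to T24, while 31.8% of all genes rose and 33.6% fell (65.4% called), and 4 rose and 6 fell from T24 to T48, against 32.8% and 32.9% (65.7%). In iEZR_CA, 7 rose and 1 fell in the first day, against 27.1% and 28.9% of all genes (56%), and 6 rose and 3 fell in the second, against 29.6% and 30% (59.6%). The one gene that fell in the first day was Tet2 in both lines. The comparisons within a line share their T24 libraries, and each comparison between the lines shares libraries with those over time.

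The de novo genes carried the largest steps of the first day. In WT, Dnmt3l rose 39.7-fold, Dnmt3a 17.2-fold and Dnmt3b 9.67-fold from ESC to T24, or 5.31 ± 0.05, 4.11 ± 0.03 and 3.27 ± 0.03 on the log2 scale. In iEZR_CA the same genes rose 8.18-fold, 3.05-fold and 3.35-fold. The difference between the 2 lines in this step (iEZR_CA minus WT) was -2.28 ± 0.07 for Dnmt3l, -2.50 ± 0.05 for Dnmt3a and -1.53 ± 0.04 for Dnmt3b (edgeR interaction, adjusted p = 1.67e-17, 1.56e-43 and 3.14e-26). Of the 2 catalytic genes, Dnmt3a thus had the larger fold in WT and Dnmt3b the slightly larger one in iEZR_CA.

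In the second day, with TMM scaling, the lines moved apart in direction for 2 of the 3 de novo genes. In WT, Dnmt3a fell slightly (-0.15 ± 0.03) and Dnmt3l fell to 0.282 of its T24 level, whereas in iEZR_CA Dnmt3a rose 2.32-fold and Dnmt3l 1.13-fold. The difference in the step was 1.36 ± 0.04 for Dnmt3a and 2.00 ± 0.06 for Dnmt3l (edgeR interaction, adjusted p = 1.5e-34 and 2.69e-18). Dnmt3b rose 1.95-fold in WT and 2.18-fold in iEZR_CA, and the difference in its step was small at 0.17 ± 0.04 (adjusted p = 0.000856, edgeR). Over both days together, Dnmt3b rose 18.8-fold in WT and 7.3-fold in iEZR_CA, Dnmt3a 15.5-fold and 7.06-fold, and Dnmt3l 11.2-fold and 9.25-fold. With libraries scaled to the spike-in sum, the second-day fall of Dnmt3a in WT was not called (-0.025, adjusted p = 0.888, edgeR). The second-day rise of Dnmt3l in iEZR_CA was not called under that scaling either (0.29, adjusted p = 0.0533, edgeR).

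Of the oxidase genes, Tet2 and Tet3 differed between the lines mostly in the step of the second day, and Tet1 in both steps. Tet2 fell to 0.499 of its ESC level in WT and 0.381 in iEZR_CA during the first day, and then to 0.205 and 0.611 of its T24 level during the second. The difference in the step was -0.39 ± 0.08 in the first day and 1.58 ± 0.10 in the second (edgeR interaction, adjusted p = 0.000714 and 4.83e-10). With spike-in scaling the first-day difference of Tet2 was not called (-0.37, adjusted p = 0.172, edgeR interaction). Tet3 rose 1.3-fold in WT and 1.35-fold in iEZR_CA in the first day, with no difference called in the step (0.06 ± 0.11, adjusted p = 0.714, edgeR), and 2.46-fold and 1.33-fold in the second (-0.88 ± 0.09, adjusted p = 2.9e-10). Tet1 rose 1.71-fold and then fell to 0.539 of its T24 level in WT. In iEZR_CA neither step of Tet1 was called by edgeR with TMM scaling (0.21 ± 0.10 and -0.20 ± 0.10, adjusted p = 0.0994 and 0.104). With limma-voom both of these steps were called (0.21 and -0.20, adjusted p = 0.00845 and 0.00966). Total counts and spike-in scaling also gave a call for the first (0.26 and 0.36, adjusted p = 0.0428 and 0.0141, edgeR). The steps of Tet1 differed between the lines by -0.56 ± 0.14 and 0.69 ± 0.14 (edgeR interaction, adjusted p = 0.00614 and 0.00117). Tdg rose in both steps in both lines, 1.98-fold and 1.26-fold in WT and 1.72-fold and 1.58-fold in iEZR_CA.

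Uhrf1 fell to 0.516 of its T24 level in WT and to 0.774 in iEZR_CA on the second day. This step of Uhrf1 differed between the lines by 0.58 ± 0.03 (edgeR interaction, adjusted p = 1.65e-23). Its first-day rise, 1.12-fold and 1.1-fold, did not differ by the test (-0.03 ± 0.03, adjusted p = 0.565, edgeR). Dnmt1 fell to 0.802 in WT and 0.889 in iEZR_CA on the second day. With spike-in scaling neither fall of Dnmt1 was called (-0.19 and -0.067, adjusted p = 0.198 and 0.708, edgeR). Nor was the second-day fall of Uhrf1 in iEZR_CA (-0.26, adjusted p = 0.0797, edgeR). Uhrf2 rose in both steps in both lines, to 1.64 times its ESC level in WT and 2.22 times in iEZR_CA by T48. Taking the differences in step over all 10 genes, none was positive and 6 were negative in the first day, where 21.5% and 16.9% of all genes were called (38.3%), and edgeR gave no positive one at an unadjusted p under 0.05. In the second day 9 were positive and 1, Tet3, was negative, against 25.3% and 20.9% (46.2%). Over both days together 7 of the 10 differed, against 45.8% of all genes. The first-day call of Dnmt1 (-0.09 ± 0.04, adjusted p = 0.0453, edgeR) was lost when any of 12 single libraries was left out (adjusted p up to 0.199).

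**Figure D3:**
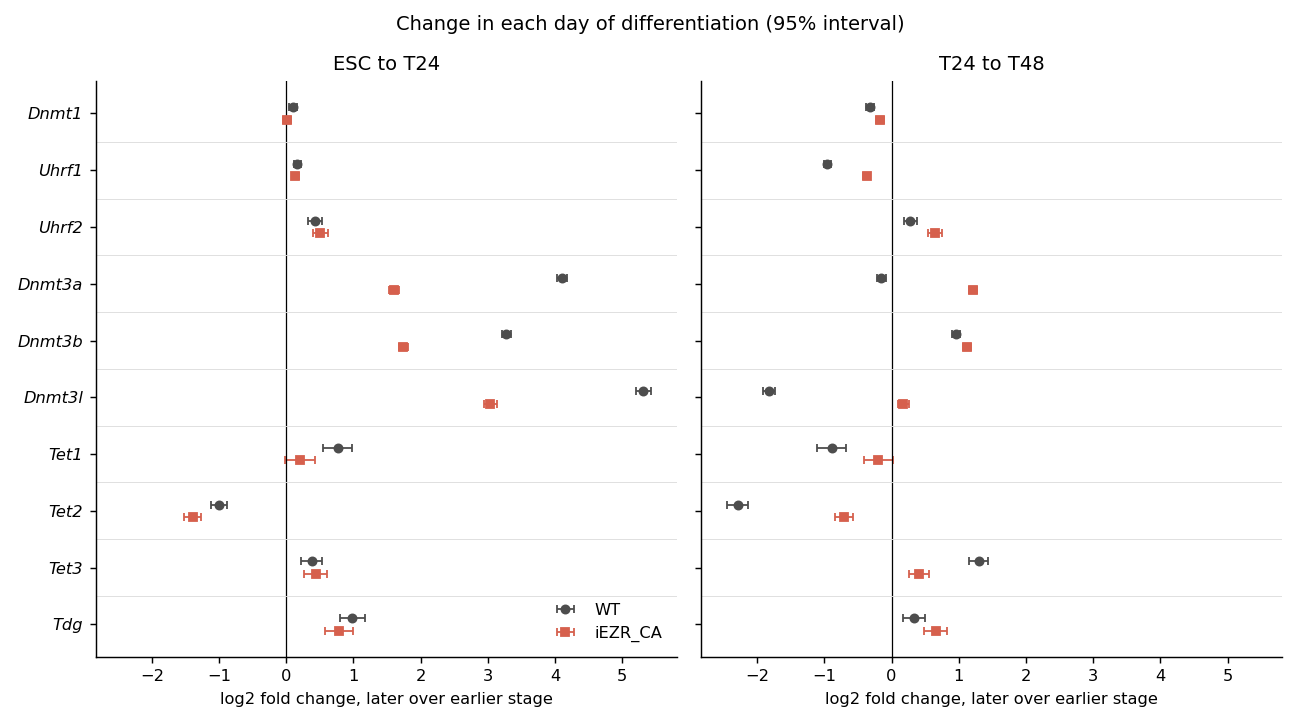
Log2 fold change (x-axis) of the 10 genes (y-axis) from ESC to T24 (left) and from T24 to T48 (right), WT in grey circles and iEZR_CA in red squares, with 95% intervals from edgeR. In the left panel Dnmt3l, Dnmt3a and Dnmt3b are furthest right in WT at 5.31, 4.11 and 3.27, and in the right panel Dnmt3l is at -1.83 in WT and at 0.18 in iEZR_CA.

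The later iEZR_CA stage was also set beside the earlier WT stage. At T48 in iEZR_CA, none of the 10 genes was beyond 2-fold of WT at T24, although all 10 were called (3 higher and 7 lower, against 29.7% and 29.4% of all genes, 59.1% in all). Dnmt3b was nearest among the de novo genes, at 0.875 of the WT T24 level, followed by Dnmt3l at 0.795 and Dnmt3a at 0.624. Tet2 was at 0.521 and Tet1 at 0.533. Uhrf2 at 1.36, Tet3 at 1.31 and Tdg at 1.17 times the WT T24 level were the 3 that were higher. Over all genes, 12.7% were called beyond 2-fold in this comparison.

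Compared per length (normalized counts per kb of merged exons), the order of the genes shifted between stages. In WT at ESC, Uhrf1 (3929 per kb) and Dnmt1 (1569) stood above Tet1 (623) and Dnmt3b (614), and Dnmt3a (73.9), Tdg (32.2) and Tet3 (24.4) were the lowest. At T24 in WT, Dnmt3l (7171 per kb) and Dnmt3b (5988) were highest, and at T48 Dnmt3b alone (11678) was far above Uhrf1 (2300) and Dnmt3l (2025). In iEZR_CA at T48, Dnmt3l (5689 per kb) and Dnmt3b (5226) were side by side. Within a gene, the order of the 6 groups had no overlap between neighbours for Uhrf1, Uhrf2, Dnmt3a, Dnmt3b, Dnmt3l and Tet2. How many of all genes tested separate the 6 groups in this way was not counted. For Tet1, WT at T24 stood above the other 5 groups, whose libraries overlapped from one neighbour to the next, and for Dnmt1 the T48 groups of both lines overlapped each other at the bottom, with WT at T24 at the top.

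Dnmt3l was a larger part of the de novo family in every iEZR_CA library than in any WT library of the same stage. Per kb, Dnmt3l made up 18.1, 21.5 and 21.7% of the summed Dnmt3a, Dnmt3b and Dnmt3l level in the WT libraries at ESC, 49.1, 49.3 and 50.6% at T24, and 12.4, 14.0 and 14.6% at T48. In iEZR_CA the Dnmt3l share was 42.0, 42.4 and 43.4% at ESC, 64.2, 64.3 and 65.8% at T24, and 47.3, 49.1 and 49.4% at T48. The share was higher in iEZR_CA at all 3 stages without overlap, including T24, when the Dnmt3l count itself was lower. The gap in means was 22.1, 15.1 and 34.9 percentage points. Dnmt3b held the complementary part, 71.0% ± 1.40 (SD, n = 3) in WT against 49.6% ± 0.729 at ESC and 78.6% ± 1.12 against 44.6% ± 1.11 at T48. Dnmt3a never exceeded 9.27% of the family in any library with merged exons as the length, but reached 12.1% with the longest transcript. With the longest transcript as the length, Dnmt3l rather than Dnmt3b was the larger part in iEZR_CA at ESC (49.2% against 41.3%) and stood well above it at T48 (55.3% against 36.6%).

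Among the oxidase genes, the Tet2 share per kb was 32.6 to 33.7% in WT and 36.8 to 38.9% in iEZR_CA at ESC, 11.8 to 13.6% and 16.1 to 17.5% at T24, and 4.41 to 4.96% and 11.4 to 12.8% at T48. Tet3 made up 11.5% ± 0.504 (SD, n = 3) in WT and 6.03% ± 0.343 in iEZR_CA at T48. Tet1 was the largest part in every library with merged exons, with 58.5% as its lowest share. With the longest transcript of each gene as the length, this order turned in iEZR_CA at ESC, where Tet2 made up 50.7% ± 1.12 (SD, n = 3) and Tet1 46.6% ± 1.27, while Tet1 remained the larger in the other 5 groups. A share within a library does not depend on how libraries are scaled. For both families, 16 of the 18 comparisons of a share between the lines gave the exact two-sided permutation p of 0.1, which is the smallest that 3 against 3 libraries allow (0.1125 after Benjamini-Hochberg adjustment over the 18), so none could pass 0.05. The other 2 comparisons were Dnmt3a and Tet3 at ESC, with exact p = 0.2 and 0.8.

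**Figure D4:**
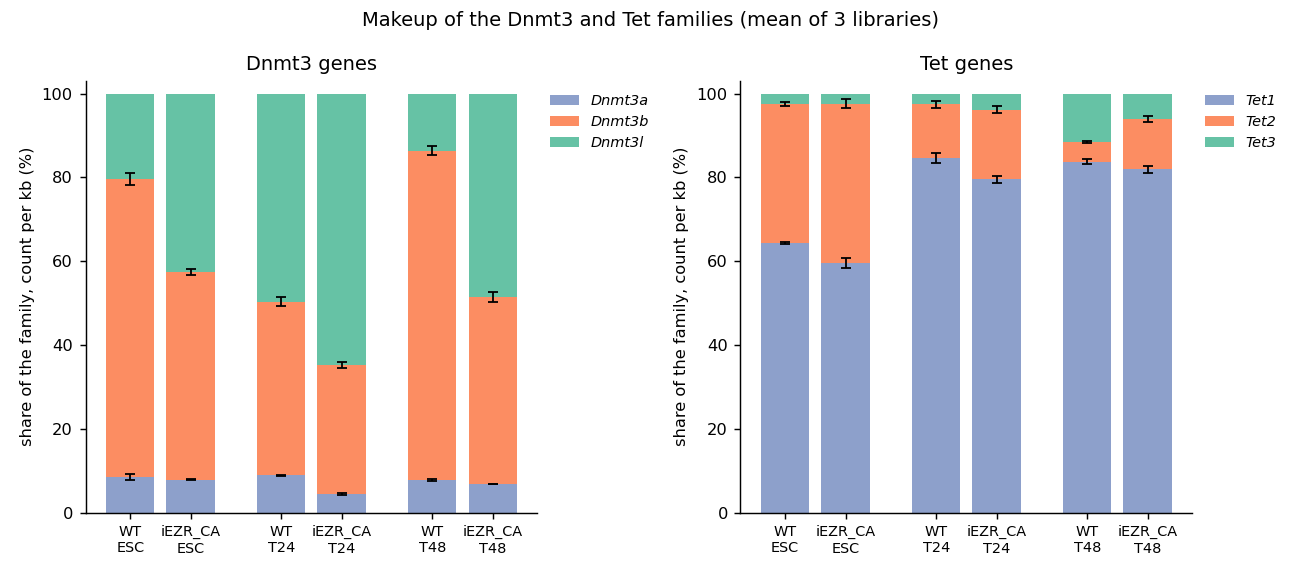
Mean share (%) of each gene in the summed count per kb of its family (y-axis) in the 6 groups (x-axis), Dnmt3 genes on the left and Tet genes on the right, with bars of 1 SD over 3 libraries at the boundaries. The Dnmt3l part of the column is 13.6% in WT and 48.6% in iEZR_CA at T48, and the Tet2 part is 4.75% and 12.1%.

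Genes at or beside the same loci were inspected because the strand setting of the counting is not given in the sources used here, and reads from overlapping genes on opposite strands may then be shared or lost. Aire lies on the opposite strand of Dnmt3l and shares 67 exon bases with it, 2.24% of the merged Dnmt3l exons. Its normalized counts averaged 18.6 at ESC, 2024 at T24 and 217 at T48 in WT, and 27.1, 1040 and 950 in iEZR_CA, far below those of Dnmt3l. By its means Aire was highest at T24 in both lines, whereas Dnmt3l in iEZR_CA was highest at T48. Whether the Aire counts are reads from Dnmt3l was not tested. Tdg shares 367 exon bases (6.83%) with Glt8d2 on the opposite strand, which had at most 24 counts in any library. The processed pseudogene Tdg-ps on chromosome 15 had 30.6 to 92.3 normalized counts on average in the 6 groups, in the order of Tdg itself apart from the T48 pair, and reads that could have come from either copy leave the level of Tdg uncertain. The pseudogenes Dnmt3a-ps1 and Dnmt3l-ps1 and the antisense gene Dnmt3aos had at most 5 counts in any library. Aire, Glt8d2, the antisense gene and the pseudogenes were looked up for their position or name after the values were seen.

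The genes nearest to Dnmt3a, Dnmt3b, Dnmt3l, Tet1 and Tet2 went both ways between the lines, with 6 to 12 of the 20 nearest higher in iEZR_CA at a given stage, so their medians do not describe each neighbour. Over the 717 tested genes of chromosome 12, the median log2 difference between the lines at T24 was -0.01, and over the 20 genes nearest to Dnmt3a it was -0.16, beside -1.89 for Dnmt3a. For Dnmt3l the medians of the 20 nearest genes were 0.02, -0.02 and 0.05 at ESC, T24 and T48. For Dnmt3b, Tet1 and Tet2 these medians stayed between -0.18 and 0.01. Aire and Icosl, which lie beside Dnmt3l, both had higher means in iEZR_CA than in WT at T48. The 20 nearest genes of Uhrf2 had medians of 0.32, 0.19 and 0.16 at the 3 stages, above Uhrf2 itself at ESC and T24 (-0.28 and -0.20) and level with it at T48 (0.16).

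The genes whose pattern was most like each of 5 chosen members were taken by Pearson's r of log2(normalized count + 1) over the 18 libraries, among 12791 tested genes with a mean of at least 50. These are descriptions, since the libraries share their lines and stages. For Dnmt3l the first was Icosl (r = 0.988), the gene for a costimulatory ligand, which starts 5680 bases beyond the end of Dnmt3l on the same strand. Icosl averaged 107, 1069 and 396 normalized counts in WT at ESC, T24 and T48, and 228, 1034 and 1115 in iEZR_CA, followed in the order of likeness by Pde7a (0.982) and Hps3 (0.977). Zswim6, Grhl2 and Hmgcs1 were most like Dnmt3a (0.992, 0.990 and 0.989). For Tet2 the genes were Zfp961, Ubxn2a and Fbxl5 (0.990, 0.990 and 0.986), and for Tet1 they were Ccdc6, Kdm6a and Ppm1j (0.953, 0.930 and 0.928). Within the 10 members, Dnmt3a and Dnmt3b had r = 0.976 with each other over the 18 libraries and Dnmt3l had 0.853 and 0.767 with them, while Tet2 and Tet3 had -0.968.

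A list of 47 other genes of DNA methylation gives the surroundings of the pathway. At ESC 9 of them were higher and 22 lower in iEZR_CA (66% called, beside 54.5% of all genes). The counts were 15 and 25 at T24 (85.1% beside 60.9%) and 17 and 13 at T48 (63.8% beside 61.1%). All 6 maintenance partners were lower in iEZR_CA at T24, where 30.1% of all genes were. They were the replication clamp gene Pcna (-0.18 ± 0.03), the ligase gene Lig1 (-0.16 ± 0.02), the deubiquitinase gene Usp7 (-0.35 ± 0.02), the chromatin remodeller gene Hells (-0.89 ± 0.02), its activator gene Cdca7 (-0.44 ± 0.03), and the related Cdca7l (-0.46 ± 0.05). At T48 Lig1 was higher (0.21 ± 0.03), and Cdca7 and Cdca7l were lower (-0.07 ± 0.03 and -1.07 ± 0.05). The other 3 were not called.

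Regulators of the methylation state in ESCs came out on both sides. Prdm14, which encodes a repressor of the de novo methyltransferase genes in naive cells, averaged 1847, 106 and 5.25 normalized counts in WT at ESC, T24 and T48, and 1330, 333 and 26.6 in iEZR_CA. It was thus lower in iEZR_CA at ESC and higher afterwards, with log2 differences of -0.48 ± 0.05, 1.62 ± 0.09 and 2.25 ± 0.33 (edgeR adjusted p = 6.42e-14, 9.55e-25 and 1.21e-08). Dppa3, whose product keeps UHRF1 from chromatin, averaged 629, 154 and 57.9 in WT and 648, 204 and 175 in iEZR_CA, and its log2 differences were 0.05 ± 0.06, 0.38 ± 0.10 and 1.70 ± 0.13 (edgeR adjusted p = 0.561, 0.000649 and 4.84e-19). Of the 11 regulators, 2 were higher and 6 lower at ESC (26.4% and 28.1% of all genes), 5 and 4 at T24 (30.8% and 30.1%), and 5 and 1 at T48 (31% and 30.1%). The 6 calls of 11 at T48 are below the 61.1% of all genes.

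Among the 8 readers of methylated CpG, Mbd2 and Zbtb38 exceeded 2-fold at T48, with log2 differences of 1.13 ± 0.07 and 1.49 ± 0.06, and both were also higher at ESC and T24. The 12 genes of repair and its helpers held the largest differences of the list. Neil2, a glycosylase gene of low level, averaged 6.04 normalized counts in iEZR_CA and 52.6 in WT at ESC, and its log2 difference was -3.09 ± 0.29 at ESC, -1.75 ± 0.23 at T24 and -2.25 ± 0.19 at T48. The abasic site endonuclease gene Apex1 was lower at all 3 stages (-1.18 ± 0.05, -1.30 ± 0.05 and -0.85 ± 0.05), and the glycosylase gene Smug1 was higher, most at T24 (1.19 ± 0.06). The 3 Gadd45 genes, stress-induced genes that have been linked to demethylation, went separate ways at T24, where Gadd45b was higher by 2.01 ± 0.08 and Gadd45a and Gadd45g were lower by 1.07 and 1.85 on the log2 scale. Gadd45b remained higher at T48 (2.53 ± 0.15).

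Of the 10 genes of methyl donor and 2-oxoglutarate metabolism, 1 was higher and 7 were lower in iEZR_CA at ESC, 1 and 8 at T24, and 4 and 4 at T48, beside 26.4% and 28.1%, 30.8% and 30.1%, and 31% and 30.1% of all genes. The one higher at ESC and T24 was Idh1, which encodes the cytosolic enzyme that makes 2-oxoglutarate, the cosubstrate of the TET enzymes, with log2 differences of 1.07 ± 0.03, 1.12 ± 0.03 and 0.87 ± 0.03. Shmt2, the mitochondrial serine hydroxymethyltransferase gene of one-carbon metabolism, was lower at all 3 stages, most at T48 (-1.12 ± 0.03). All values of these paragraphs on the list of 47 genes are edgeR log2 fold changes of iEZR_CA over WT with their SE.

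**Figure D5:**
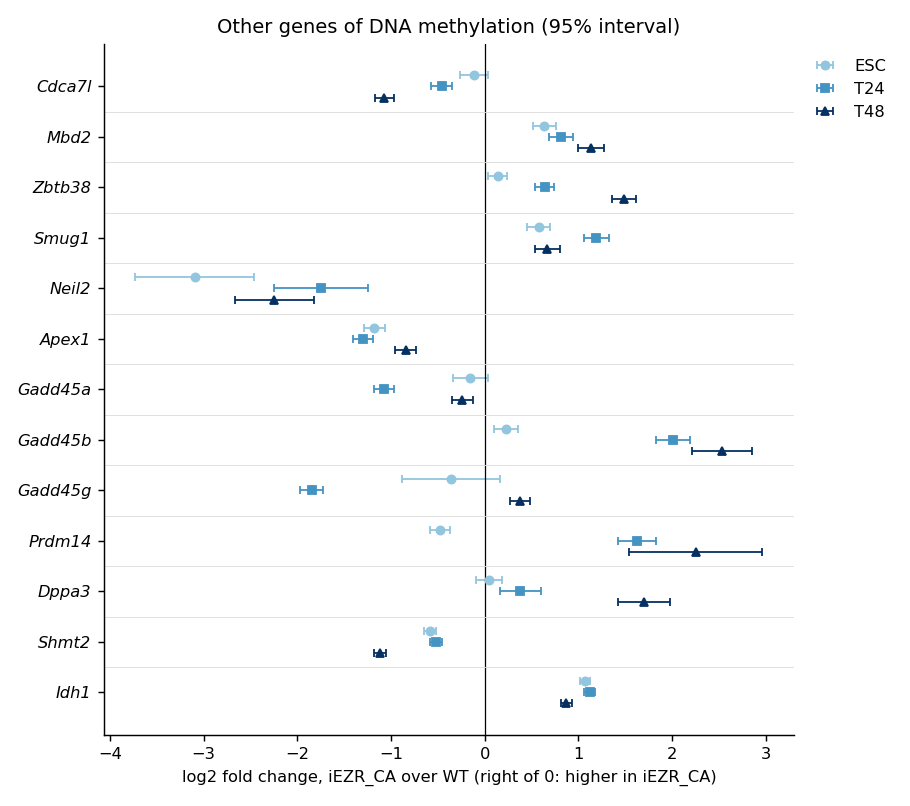
Log2 fold change of iEZR_CA over WT (x-axis) at ESC, T24 and T48 for the 13 genes of the list of 47 that passed 2-fold at a stage, among them Prdm14 and Dppa3 (y-axis), with 95% intervals from edgeR. Neil2, Apex1 and Shmt2 are left of 0 at all 3 stages, Mbd2, Zbtb38, Smug1, Gadd45b and Idh1 are right of it, and Prdm14 goes from -0.48 at ESC to 2.25 at T48.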

How the data were processed

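RNA was measured in 18 libraries of 6 groups. Per the labels and the methods of the study, the authors trimmed reads with Trim Galore 0.6.5, aligned them to mm10 with GSNAP and counted them per Ensembl gene with HTSeq. The deposited values are raw counts, beside 92 spike-ins and 5 categories of reads not assigned to a gene (21.3 to 24.3% of reads), which were left out of library sizes. Whether counting used strand is not given in the sources used here. Gene positions and exon lengths came from GENCODE M21. Genes were filtered with filterByExpr, scaled by TMM (0.975 to 1.03) and tested with the quasi-likelihood test of edgeR 4.0.16 (R 4.3.3), with all 18 libraries and a term for each group. Each SE was derived from that test, as the absolute log2 fold change divided by the square root of the F statistic. The 95% intervals were derived from these SEs with the t distribution on 12 residual degrees of freedom. Normalized counts used DESeq2 1.42.0 size factors. The alternatives were DESeq2, limma-voom 3.58.1, 3 other scalings, 2 other filters, fits of only the groups compared, and leaving out each library. Replicate libraries differed by more than sampling noise (chi-square per degree of freedom 1.61 to 3.59 in 18 pairs). The members, the other gene lists and the tests were chosen with earlier results of these data known. Named genes were the 10 members, list genes past 2-fold between the lines with an adjusted p under 0.05, Prdm14, Dppa3, Ezr, markers, and the 3 genes most like each of 5 members. The maintenance partners were all named as well, whatever their change. So were genes and pseudogenes looked up because they overlap a member or carry its name. The genes most like Dnmt3b are not reported here.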

Additional observations from a re-analysis of the deposited data

Results flagged for a closer look

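The change with time differed between the lines, by the interaction test of edgeR with an adjusted p under 0.05, in 23 of the 30 changes tested (3 intervals for each of the 10 genes). From ESC to T24, T24 to T48 and ESC to T48, 6, 10 and 7 of the 10 genes were called. The shares of all genes tested were 38.3%, 46.2% and 45.8%. All values are log2 changes, iEZR_CA minus WT, and the 3 intervals share libraries. From ESC to T24 the difference was -0.091 for Dnmt1, -2.50 for Dnmt3a, -1.53 for Dnmt3b, -2.28 for Dnmt3l, -0.56 for Tet1 and -0.39 for Tet2. From T24 to T48 the difference was 0.15 for Dnmt1, 0.58 for Uhrf1, 0.36 for Uhrf2, 1.36 for Dnmt3a, 0.17 for Dnmt3b, 2.00 for Dnmt3l, 0.69 for Tet1, 1.58 for Tet2, -0.88 for Tet3 and 0.32 for Tdg. From ESC to T48 the difference was 0.56 for Uhrf1, 0.44 for Uhrf2, -1.14 for Dnmt3a, -1.37 for Dnmt3b, -0.27 for Dnmt3l, 1.19 for Tet2 and -0.82 for Tet3. The groups hold 3 libraries each, too few for a test of single libraries that stand apart.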

How the results depend on the processing

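Under DESeq2, limma-voom, RLE factors, total counts, both other filters, fits of only the groups compared and leaving out each library, all counts of called members and of called genes of the list of 47 stayed within 1.5 times their values. Scaling by the spike-in sum lowered 11 of the 26 counts beyond that. The called members fell from 6 to 2 at ESC and from 9 to 4 at T24 between the lines, and from 10 to 6 for the difference in the second-day step. The called list genes were then 12 at ESC and 24 at T24 between the lines, 29 in WT and 21 in iEZR_CA from ESC to T24, 10, 13 and 11 for the differences in step over the first day, the second day and both, and 21 for iEZR_CA at T48 against WT at T24. Spike-in scaling moved the median of all genes by 0.27 in WT and 0.26 in iEZR_CA from ESC to T48 on the log2 scale, and turned the falls from ESC to T48 of Dnmt1 (0.047 in WT and 0.097 in iEZR_CA) and of Uhrf1 in iEZR_CA (0.023) into values with no call (adjusted p = 0.754, 0.515 and 0.886, edgeR). It also ended the calls between the lines of Uhrf1, Uhrf2, Dnmt3b and Tet2 at ESC and of Dnmt1, Uhrf1, Uhrf2, Tet2 and Tdg at T24, and of Dnmt1 and Uhrf2 at T48. Within WT it ended the calls of Dnmt1 in both steps and of Dnmt3a in the second. Within iEZR_CA it ended those of Uhrf1 in both steps and of Dnmt1 and Dnmt3l in the second. The first-day differences in step of Dnmt1 and Tet2 also lost their calls. The cause was not tested. With the longest transcript in place of merged exons, the gap in the Dnmt3l share was 23.9 percentage points at ESC and 37.9 at T48, that in the Tet2 share was 5.28 at T24 and 11.1 at T48, and Tet2 exceeded Tet1 in iEZR_CA at ESC. With 50 neighbours in place of 20, Uhrf2 at T48 was 0.081 above their median, where it had been level with that of 20. Leaving out iEZR_CA T24 replicate 3 ended the call of the second-day difference in step of Tdg (0.26, adjusted p = 0.0555, edgeR) and brought a call of the first-day rise of Tet1 in iEZR_CA (0.27, adjusted p = 0.0493), a rise that limma-voom also called (0.21, adjusted p = 0.00845). Total counts and spike-in scaling called this rise too. The second-day fall of Tet1 in iEZR_CA was called by limma-voom (-0.20, adjusted p = 0.00966). Taken over 6 group means, the gene most alike was the same for 1 of the 5 members, Tet1. Depth was at least 10940752 counts, and Tdg had the fewest normalized counts of the 10 genes in all 6 groups. No paired analysis was possible because the labels give no replicate numbers.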
